A study of Mus musculus with 15 samples.

Results

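A segment of mouse chromosome 19 that carries the annexin gene Anxa1 and the aldehyde dehydrogenase gene Aldh1a1 was examined across brain regions and lines. Its 5 genes, Anxa1, Aldh1a1, E030003E18Rik, Aldh1a7 and Zfand5, were taken by symbol from the 26628 genes of the deposited table. They were picked as neighbors whose values differed between the lines, so the line differences below describe the choice, and no P-value is given for them. RNA was sequenced from the whole cerebellum (Ce) and the whole striatum (St) of male Hsd:ICR mice, aged 6 weeks per the labels, of a line bred for high voluntary running (Hi) or a control line (Co). There were 4 CeCo, 4 CeHi, 4 StCo and 3 StHi samples, the authors having set aside 1 StHi sample after a principal component analysis. Mice of both lines could use a running wheel until dissection on day 7, so no group was sedentary. Each line is 1 population, and what selection changed cannot be told apart from what differs between any 2 closed populations. The line of each sample was read from the deposited labels alone. The sign of line differences is not given in 1 way throughout the sources used here: in part of the study's own tables it runs opposite to these labels, which the data could not settle. If the line labels were exchanged, every statement below on Hi and Co would turn around, while region differences would not.

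Aldh1a1 is a cytosolic enzyme that oxidizes retinaldehyde to retinoic acid, the ligand of the nuclear retinoic acid receptors, and in the brain it is known as a marker of a class of midbrain dopamine neurons whose axons end in the striatum. Aldh1a7 is its close copy in rodents. Anxa1 is a calcium-dependent phospholipid-binding protein that acts through formyl peptide receptors to limit inflammation, Zfand5 is an AN1-type zinc finger protein that binds ubiquitin and the proteasome, and E030003E18Rik is a long noncoding RNA without a role known here.

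On GRCm38 the segment runs over 913.4 kb (chr19:20373434-21286840) and holds 17 annotated genes, of which 8 are in the table. Anxa1 lies first, on the minus strand (chr19:20373434-20390671). Aldh1a1 follows on the plus strand (chr19:20492583-20643463), and Aldh1a7 lies beyond it on the minus strand (chr19:20692953-20727556). Zfand5 closes the segment on the plus strand (chr19:21271786-21286840). E030003E18Rik (chr19:20492715-20556410) lies within Aldh1a1 on the same strand and its start is 132 bases from that of Aldh1a1. The antisense long noncoding RNA C730002L08Rik (chr19:20534527-20552330) lies within both. The counting annotation and any use of strand are not given in the sources used here, so reads of these 3 overlapping genes may have been divided between them in ways that cannot be told apart.

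Aldh1a1 and Aldh1a7 are near copies. Their coding sequences, 1503 bases each, differed at 126 bases and were 91.6% identical, with a longest identical run of 100 bases. Of the 50-base windows of their transcripts, 3.06% of those of Aldh1a1 and 7.49% of those of Aldh1a7 occurred in the other gene, against 0% for Anxa1 and Zfand5 in any gene. The 250 bases before the annotated starts are printed to show how near the upstream sequences of this pair are, beside those of the outer genes. They are RefSeq sequences of GRCm38.p6, read 5′ to 3′ on the strand of the gene, for Anxa1 (chr19:20390672-20390921, minus), the proximal start of Aldh1a1 (chr19:20601718-20601967, plus), Aldh1a7 (chr19:20727557-20727806, minus) and Zfand5 (chr19:21272028-21272277, plus). Capitals mark the TATA box (TATAAA), the CCAAT box (CCAAT), the octamer (ATGCAAAT) and the GC box (GGGCGG), searched on both strands, and none of the marked motifs overlap.
Anxa1: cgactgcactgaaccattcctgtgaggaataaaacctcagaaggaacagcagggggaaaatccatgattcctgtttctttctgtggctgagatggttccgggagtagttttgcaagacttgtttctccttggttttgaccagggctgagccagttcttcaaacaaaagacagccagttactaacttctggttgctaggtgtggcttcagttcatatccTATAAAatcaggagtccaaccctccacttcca
Aldh1a1 proximal: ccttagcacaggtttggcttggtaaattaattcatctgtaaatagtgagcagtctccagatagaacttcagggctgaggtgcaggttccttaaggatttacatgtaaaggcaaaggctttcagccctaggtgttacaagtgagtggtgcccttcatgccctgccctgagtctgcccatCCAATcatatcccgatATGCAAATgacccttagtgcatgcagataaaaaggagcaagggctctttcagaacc
Aldh1a7: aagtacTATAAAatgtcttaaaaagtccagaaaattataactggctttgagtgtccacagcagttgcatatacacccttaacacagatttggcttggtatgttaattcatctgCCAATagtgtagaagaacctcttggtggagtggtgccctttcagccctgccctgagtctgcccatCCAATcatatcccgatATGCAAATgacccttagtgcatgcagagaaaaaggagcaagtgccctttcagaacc
Zfand5: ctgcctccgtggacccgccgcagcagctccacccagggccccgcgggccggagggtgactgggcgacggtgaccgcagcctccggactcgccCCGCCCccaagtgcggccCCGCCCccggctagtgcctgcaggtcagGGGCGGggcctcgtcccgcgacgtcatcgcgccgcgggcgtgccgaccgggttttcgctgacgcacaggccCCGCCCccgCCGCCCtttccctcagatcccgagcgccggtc
The proximal Aldh1a1 and the Aldh1a7 windows were 66.0% identical and shared a run of 65 identical bases, from base 94 to base 30 before either start, which no other promoter window contained. Inside this run both held CCAAT at bases 72 to 68 and the octamer at bases 56 to 49. CCAAT occurred in 33.8% and the octamer in 1.6% of all 32851 RefSeq mouse promoter windows of this length. Anxa1 held TATAAA at bases 32 to 27, a motif present in 12.4% of windows. Zfand5 had a GC content of 78.0% and 5 GC boxes, a motif present in 32.7% of windows. The distal Aldh1a1 window and that of E030003E18Rik, which overlap, held none of these motifs. A match of letters describes the window and is not evidence of binding.

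The deposited values are fragment counts divided by a library factor, called normalized counts here, at 32909380 to 47485487 fragments per sample and 0.841 to 1.30 normalized counts per fragment. The region labels fitted their marker genes: the summed CPM (counts scaled to 1 common total per sample) of 10 cerebellar markers was 7223 to 8740 in Ce and 331 to 433 in St. The sum of 8 choroid plexus markers varied from 37.1 to 3050 among Ce samples of both lines and from 30.0 to 425 in St. In bulk tissue, fewer cells of a type and less RNA per cell cannot be told apart. Each sample is tissue of 1 mouse, and whether a Ce and a St sample with the same number are of the same mouse is not given in the sources used here. Adjusted P-values set differences of group means against the spread between these samples, which were taken as independent.

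Aldh1a1, the retinaldehyde dehydrogenase, had higher levels in Hi than in Co in both regions. In CeCo the 4 samples had 4724, 4422, 4379 and 4196 normalized counts, and in CeHi 7880, 6811, 7324 and 7231. In StCo they had 612, 604, 515 and 536, and in StHi 961, 906 and 806. The lines did not overlap in either region. The mean was 1.65-fold higher in CeHi than in CeCo and 1.57-fold higher in StHi than in StCo, log2 differences (Co minus Hi) of -0.72 ± 0.07 (SE) in Ce and -0.65 ± 0.08 in St. Fitted as 1 gene with Aldh1a7, the log2 differences were -0.72 and -0.68.

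E030003E18Rik, the noncoding RNA at the 5′ part of Aldh1a1, followed the same order. The CeCo samples had 768, 707, 663 and 658 normalized counts and the CeHi samples 1328, 1033, 962 and 1142. The StCo samples had 66.7, 41.5, 42.0 and 39.3 and the StHi samples 92.1, 94.2 and 77.2. Hi lay above Co without overlap in both regions, with StCo replicate 0 set apart from the other StCo samples. The means were 1.60-fold higher in CeHi and 1.85-fold higher in StHi, log2 differences of -0.66 ± 0.15 and -0.90 ± 0.16. This RNA and Aldh1a1 are both far higher in Ce. Of 10 cerebellar markers 2 were also called for the line in St, against 2.66% of all genes tested, both higher in StHi. They were En2 (log2 -1.41 ± 0.26, limma adjusted P-value = 0.0098) and Cbln1 (-0.51 ± 0.12, 0.026), named after their values were seen. Of the markers not called, Cbln3, Pcp2, Calb1 and Grm4 had higher means in StHi than in StCo. Gabra6, Neurod1, Zic1 and Zic2 had lower means in StHi. The summed CPM of the 10 markers was 331 to 401 in StCo and 344 to 433 in StHi, with no marker at 0 in the group means, and their part in the St values was not tested.

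Aldh1a7 had few fragments in Ce and more in St. The CeCo samples had 5.59, 3.57, 4.27 and 5.34 normalized counts (4 to 6 fragments) and the CeHi samples 17.7, 14.8, 12.04 and 8.45 (8 to 21 fragments). The StCo samples had 33.3, 50.4, 32.6 and 38.4 and the StHi samples 88.2, 91.3 and 73.6. Every Hi sample lay above every Co sample of its region. The means were 2.82-fold higher in CeHi and 2.18-fold higher in StHi, log2 differences of -1.29 ± 0.25 and -1.12 ± 0.27, on a scale that understates changes of low genes. Aldh1a7 reached 1 CPM in 4 of 15 samples, 3 of them StHi, so without that group it would not have passed the filter.

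Anxa1 ran the other way. The CeCo samples had 109, 94.5, 154 and 122 normalized counts and the CeHi samples 105, 81.2, 88.9 and 96.2. The StCo samples had 55.5, 62.3, 57.8 and 63.1 and the StHi samples 41.5, 40.8 and 33.2. The lines overlapped in Ce and did not overlap in St, where all StCo samples were higher. The mean was 1.29-fold higher in CeCo and 1.55-fold higher in StCo, log2 differences of 0.35 ± 0.16 and 0.63 ± 0.17. The summed CPM of 10 meningeal fibroblast and vessel markers was 231 to 410 in CeCo against 209 to 287 in CeHi, and 91.9 to 117 in StCo against 80.9 to 99.8 in StHi. Of these markers 0 of 10 passed the test in either region, none was at 0, and their part in the values of Anxa1 was not tested.

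Zfand5, the ubiquitin-binding zinc finger gene, showed the smallest line difference of the 5 genes. The CeCo samples had 11145, 12587, 11291 and 12418 normalized counts and the CeHi samples 10142, 9379, 9990 and 11048. The StCo samples had 8112, 8826, 8162 and 8311 and the StHi samples 7181, 7625 and 7761. Co lay above Hi without overlap in both regions, by 1.17-fold in Ce and 1.11-fold in St (log2 0.23 ± 0.06 and 0.16 ± 0.06).

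**Figure D1:**
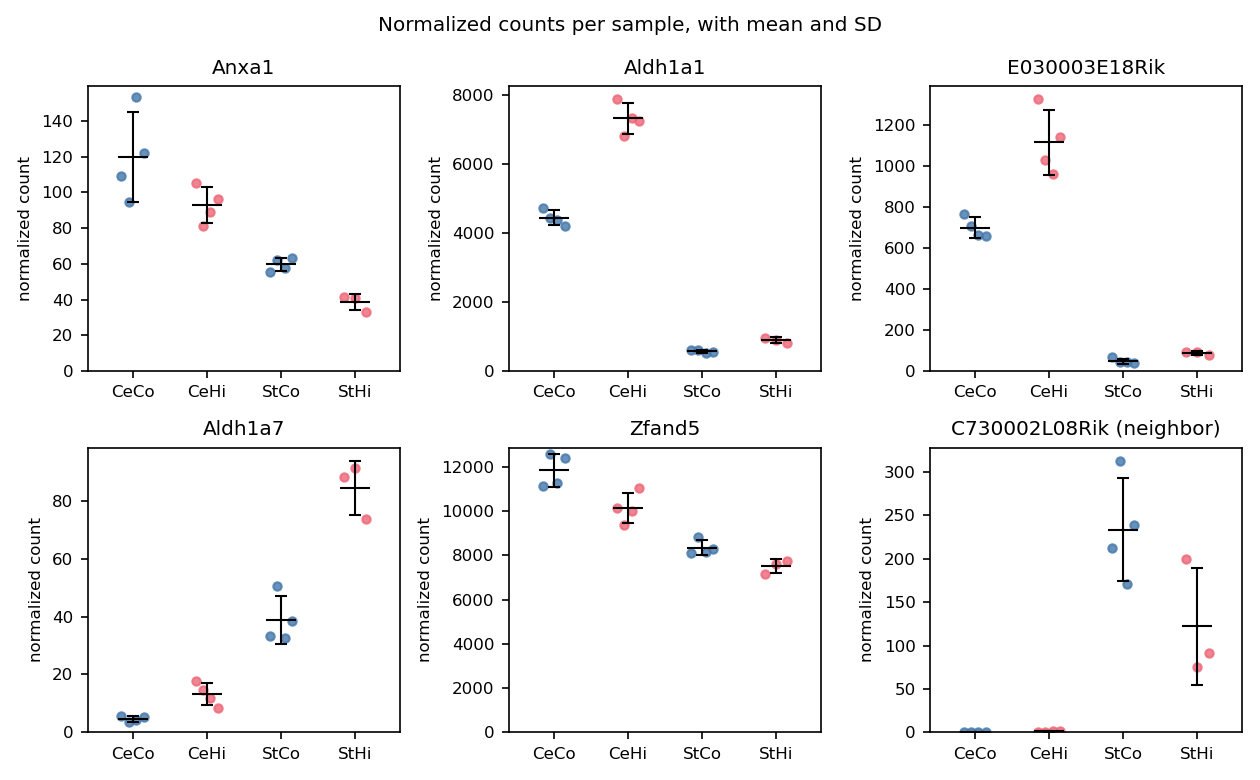
Normalized counts (linear axis from 0) of the 5 segment genes and the neighbor C730002L08Rik in each sample by group, with points for samples, horizontal bars for means and error bars for SD (n = 4, 4, 4 and 3). Aldh1a1, E030003E18Rik and Aldh1a7 were higher in Hi in both regions, Zfand5 was lower in Hi in both, and Anxa1 overlapped between the lines in Ce.

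Read together, 3 genes were higher in Hi and 2 higher in Co in each region. At an adjusted P-value under 0.05 (limma), 4 of 5 were called in Ce, all but Anxa1, against 5.94% of the 15213 genes tested. In St 3 of 5 were called, Aldh1a1, E030003E18Rik and Aldh1a7, against 2.66% of genes. Because the genes were chosen on these differences, the choice fixes these counts and the overlaps that follow, and nothing is read from them. Samples of the lines did not overlap for 4 of 5 genes in Ce, against 13.3% of genes, and for 5 of 5 in St, against 13.1%. The interaction of line and region, from the same contrasts, was called for 0 of 5 genes, against 0.532% of genes. At an unadjusted P-value under 0.05 the count was also 0, given without its share over all genes. For the interaction edgeR called 0 of 5 (100 of all 15212 genes) and DESeq2 0 of 5 (277 of all 15212). The log2 values of the interaction ran from -0.28 ± 0.23 for Anxa1 to 0.24 ± 0.22 for E030003E18Rik.

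By limma the regions differed for the 4 genes that pass the filter within either region alone, as they did for 80.2% of genes tested. The largest of these differences was that of E030003E18Rik, with a log2 difference (Ce minus St) of 3.76 ± 0.11 (adjusted P-value = 2.7e-15). Aldh1a1 was 7.82-fold higher in CeCo than in StCo and 8.21-fold higher in CeHi than in StHi (log2 2.997 ± 0.05, adjusted P-value = 3.9e-18). Anxa1 was 2.01-fold higher in Ce in Co and 2.41-fold in Hi (log2 1.11 ± 0.12, adjusted P-value = 1.1e-07). Zfand5 had a smaller region difference, log2 0.46 ± 0.04 (adjusted P-value = 1.9e-08). Aldh1a7 was lower in Ce, by a log2 difference of -2.71 ± 0.19, and was 8.24-fold higher in StCo than in CeCo. The 4 samples in which it reached 1 CPM are all St samples, so it entered the table of tested genes through the region where it is high, and this difference is given without a P-value.

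Per kilobase of annotated exon, the mean levels were 897 normalized counts in CeCo for Aldh1a1, 1103 for Zfand5, 41.2 for Anxa1 and 2.27 for Aldh1a7. In CeHi they were 1481 for Aldh1a1 and 943 for Zfand5. Per length the order of these 2 genes thus differed between the lines in Ce. The lengths were unions of annotated exon bases, 4937 for Aldh1a1 and 10751 for Zfand5. Whether they match the exons counted was not tested. Before division by length Zfand5 was higher in both lines in Ce. Its mean normalized count was 11860.1 in CeCo, against 4430.4 for Aldh1a1, and 10139.6 in CeHi, against 7311.5. Per kilobase in St, Zfand5 was first in both lines, at 777 in StCo and 700 in StHi, against 115 and 181 for Aldh1a1. Anxa1 (20.5) and Aldh1a7 (18.7) were near each other in StCo, whereas in StHi Aldh1a7 (40.8) was above Anxa1 (13.2). No exon length was available for E030003E18Rik, which has no entry under this symbol in the annotation used for lengths.

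Ratios within a sample do not depend on library scaling. E030003E18Rik came to 15.8% ± 0.479 (SD, n = 4) of the normalized count of Aldh1a1 in CeCo and 15.2% ± 1.56 (n = 4) in CeHi, against 8.32% ± 1.80 (n = 4) in StCo and 9.85% ± 0.473 (n = 3) in StHi. The lines overlapped in this ratio in both regions, and the regions did not. Aldh1a7 made up 0.106% ± 0.0210 of the sum of Aldh1a1 and Aldh1a7 in CeCo and 0.180% ± 0.0499 in CeHi, against 6.38% ± 1.08 in StCo and 8.64% ± 0.443 in StHi. Over both lines the mean was 15.5% in Ce and 8.97% in St for the first ratio, and 0.143% and 7.35% for the second. The region difference of the first ratio had P-value = 0.000311 in a two-sided exact permutation test of 8 Ce against 7 St samples. This is the smallest value the design allows, and it was 0.000311 after adjustment over 3 ratios. Aldh1a7 and C730002L08Rik reached 1 CPM in St samples only, so ratios with these genes are given without a P-value. Lines were pooled in this test. How reads that fit both dehydrogenase genes were assigned is not given in the sources used here, and its part in the low Aldh1a7 values of Ce was not tested.

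**Figure D2:**
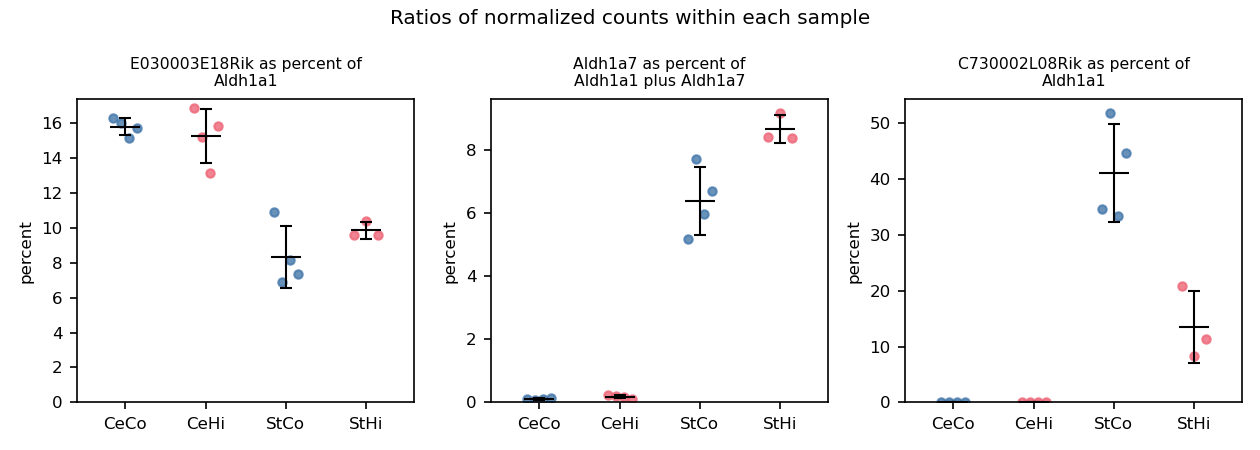
Ratios in percent (linear axis from 0) of normalized counts within each sample for E030003E18Rik over Aldh1a1, Aldh1a7 over the sum of Aldh1a1 and Aldh1a7, and C730002L08Rik over Aldh1a1, with points for samples and mean ± SD per group (n = 4, 4, 4 and 3). The first ratio was higher in all Ce samples than in any St sample and the other 2 were higher in all St samples.

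C730002L08Rik, the antisense RNA within Aldh1a1, was the only other gene of the segment to pass the filter. It had 0 to 2 fragments in every Ce sample, at or under the floor of 3 fragments that a count of 0 allows, which covers counting error only. In St it had 171 to 313 normalized counts in StCo, with a mean of 234, and 75.7 to 200 in StHi, with a mean of 122. The lines overlapped and the log2 difference of 1.03 ± 0.43 did not pass the test (limma adjusted P-value = 0.28). It came to 41.1% ± 8.70 of Aldh1a1 in StCo and 13.5% ± 6.49 in StHi. Aldh1a1, the denominator, was chosen for its line difference, so part of this gap is built in. The remaining segment genes of the table, 1500015L24Rik and Tmc1, had at most 12 fragments in any sample and were not tested.

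Genes on either side of the segment were chosen by position, 20 tested genes before Anxa1 over 7.91 Mb and 20 after Zfand5 over 5.32 Mb, and with C730002L08Rik they made 41. In Ce 3 of 41 (7.32%) were called for a line difference, against 5.94% of all genes, and all 3 were higher in CeHi. These were Fam111a, a protease gene (log2 -0.86 ± 0.23, adjusted P-value = 0.038), Psat1, an enzyme of serine synthesis (-0.37 ± 0.09, 0.015), and 1110059E24Rik (-0.41 ± 0.05, 8.4e-05). Fam111a overlaps another gene of the table in the annotation, and its call was lost in 9 of 24 alternatives. In St 0 of 41 were called by limma, against 2.66% of all genes, with 14 at an unadjusted P-value under 0.05. There edgeR called 0 (420 of all 15212 genes) and DESeq2 0 (711 of all 15212). Counts at an unadjusted P-value are given here and below without their share over all genes, so nothing is read from them. The median size of the line difference among the 41 was 0.13 in Ce and 0.15 in St on the log2 scale. No median size over all genes is given, so nothing is read from it. The shares called depend on the number of genes taken. In Ce they were 4.76% with 10 genes on each side and 12.3% with 40, and in St 7.41% with 40. Over the whole of chromosome 19, 38 of 504 tested genes (7.54%) were called in Ce and 21 (4.17%) in St.

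**Figure D3:**
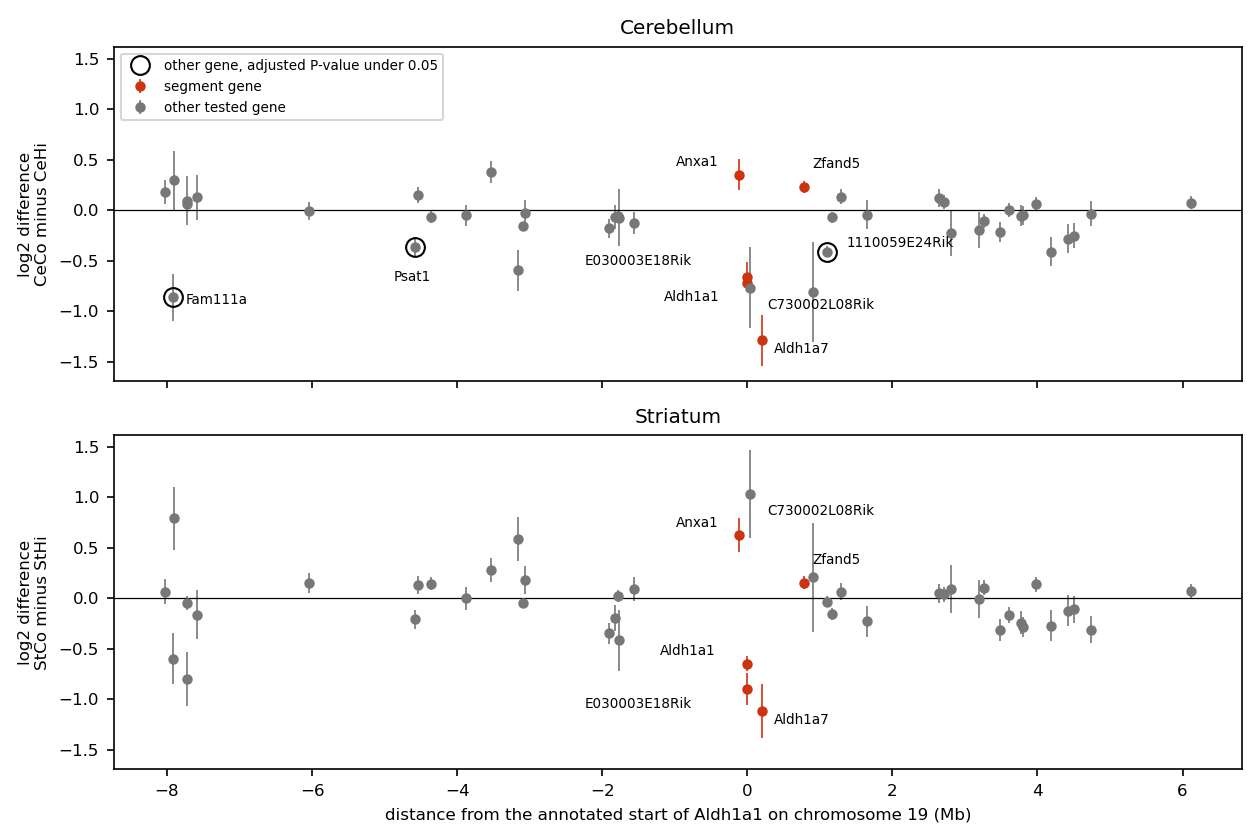
Line difference on the log2 scale (Co minus Hi, with standard error) in Ce and St against the distance in Mb from the annotated start of Aldh1a1, for the 5 segment genes (red) and the 41 other tested genes (gray), with black circles for other genes at an adjusted P-value under 0.05. In Ce 3 other genes were circled and in St none, and Aldh1a7 lay lowest in both regions.

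Among the genes of the retinoic acid pathway, to which Aldh1a1 belongs, 28 of a list of 37 were tested. In Ce 2 of 28 passed the test (7.14%, against 5.94%): Rara, a retinoic acid receptor, was higher in CeCo (log2 0.65 ± 0.14, limma adjusted P-value = 0.0077), and its partner Rxra was higher in CeHi (-0.29 ± 0.05, 0.0028). In St 0 of 28 passed by limma, against 2.66% of all genes, with 7 at an unadjusted P-value under 0.05. In St edgeR called 0 of the 28 and DESeq2 called 5, where DESeq2 called 711 of all 15212 genes. The other retinaldehyde dehydrogenases ran opposite to Aldh1a1 in sign without passing the test. Aldh1a2 had log2 differences of 0.46 ± 0.35 in Ce and 0.65 ± 0.38 in St (adjusted P-values 0.52 and 0.5), and Aldh1a3 of 0.36 ± 0.23 and 0.94 ± 0.25 (0.43 and 0.054). The median log2 difference of the list was 0.02 in Ce and -0.04 in St, against 0.002 and 0.005 over all genes tested.

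In the remaining aldehyde dehydrogenase family, 17 of 18 genes were tested. In Ce 0 of 17 passed by limma, against 5.94% of all genes, with 3 at an unadjusted P-value under 0.05. There edgeR called 2 (952 of all 15212 genes) and DESeq2 3 (1390 of all 15212). In St 2 of 17 were called by limma (11.8%, against 2.66%). One of them, Aldh3a1, reached 1 CPM in 3 samples only, all StCo, and so was tested only through the group where it is high. Aldh3a1, which oxidizes medium-chain and aromatic aldehydes, had higher values in StCo, with 41.0 to 66.7 normalized counts against 5.83 to 13.1 in StHi (log2 2.66 ± 0.41, given without a P-value). Aldh6a1, a mitochondrial enzyme of valine breakdown, was higher in StHi (log2 -0.32 ± 0.06, limma adjusted P-value = 0.0062), the direction of Aldh1a1.

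Of 20 annexins, annexin partners and formyl peptide receptors, 9 were tested, and none of the receptors was among them. In Ce 1 of 9 passed (11.1%, against 5.94% of all genes, a share that a single gene sets): Anxa7 was higher in CeHi (-0.37 ± 0.07, limma adjusted P-value = 0.0022), against the sign of Anxa1. In St 0 of 9 passed by limma, against 2.66% of all genes, with 0 at an unadjusted P-value under 0.05. There edgeR called 0 (420 of all 15212 genes) and DESeq2 0 (711 of all 15212). Of 6 AN1-type zinc finger genes beside Zfand5, all 6 were tested and 1 (16.7%, against 5.94%) passed in Ce. It was Anubl1 (now Zfand4), higher in CeCo (log2 0.45 ± 0.11, limma adjusted P-value = 0.018), a call lost in 3 of 24 alternatives (adjusted P-value up to 0.061). In St 0 of 6 passed by limma, against 2.66% of all genes, with 1 at an unadjusted P-value under 0.05. Of these 6 genes edgeR and DESeq2 also called 0 in St, where they called 420 and 711 of all 15212 genes.

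**Figure D4:**
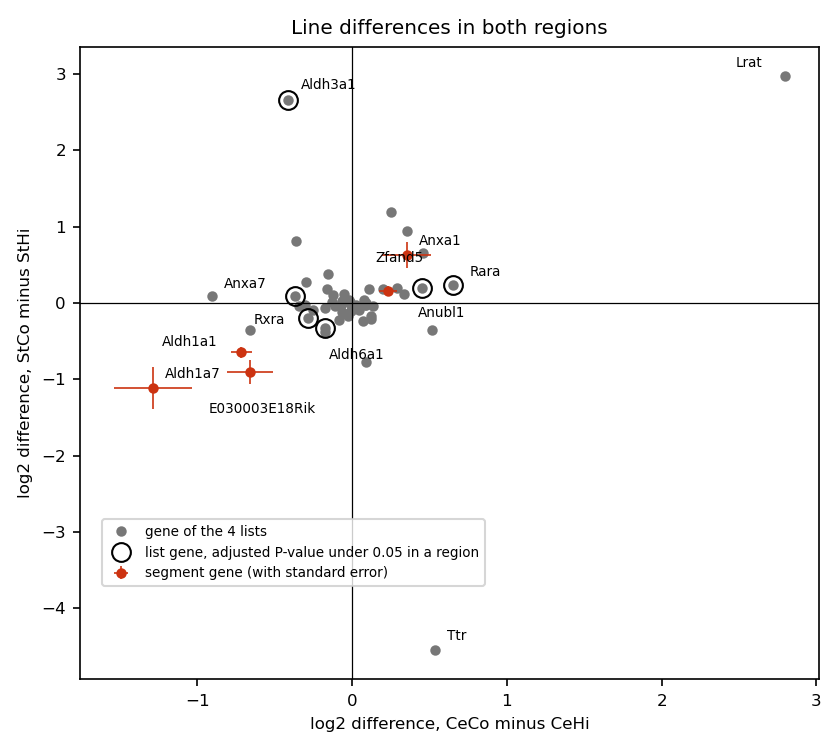
Line difference in Ce (horizontal axis) and in St (vertical axis), both log2 Co minus Hi, for the segment genes (red, with standard errors) and the tested genes of the 4 lists (gray), with black circles for list genes at an adjusted P-value under 0.05 in a region. The 5 segment genes had the same sign in both regions; the far list genes Lrat and Ttr did not pass the test in either region.

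The pattern of each gene over the 15 samples, with each region centered on its mean, was compared with that of all tested genes, as a description in which the samples share lines and libraries. Lines were not centered, so the size and sign of r largely restate the line difference for which the genes were chosen. Within the segment, Aldh1a1 had r = 0.92 with E030003E18Rik, 0.93 with Aldh1a7, -0.82 with Zfand5 and -0.72 with Anxa1. The genes most like Aldh1a1 were 5830417I10Rik (0.973), Cox7b (0.965) and Fam89b (0.962). For E030003E18Rik they were Scrg1 (0.94), Adi1 (0.931) and Sepp1 (0.925), and for Aldh1a7 they were Cyp11a1 (0.94), Cnpy4 (0.932) and Aldh1a1 (0.927). Those of Anxa1 were Fstl1 (0.894), Abcb10 (0.877) and Adora2b (0.877), and those of Zfand5 were 6230416C02Rik (0.939), Il7r (0.925) and A130010J15Rik (0.906). Of these 15 genes, Fam89b and Aldh1a1 are on chromosome 19.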

How the data were processed

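Gene values of 15 samples were analyzed. Per the methods, TopHat2 mapped read pairs (100 bases each) to GRCm38 and Cuffnorm 2.2.1 adjusted for library size. The deposited signal is thus each gene's fragment count over 1 scaling factor for the library, with no division by length by the authors. In each sample 99.3% to 99.5% of low values were whole multiples (tolerance 0.01) of 1 fragment, and fragments were recovered with this step. A separate check of the columns recovered the step in 10 of 15 samples and not in the other 5, for a reason not established, and the fragment counts and the edgeR and DESeq2 fits rest on it. Genes with CPM of at least 1 in 3 samples (15213 of 26628) were tested. Values were scaled by TMM (edgeR 4.0.16, divisors 0.993 to 1.008) and logged (log2, pseudocount 1). limma 3.58.1 (trended, robust, R 4.3.3) was fitted to the means of the 4 groups, with Benjamini-Hochberg adjustment over all genes. The fit was tested on simulated data with changes larger than those of the segment genes and the same spread setting for every gene. That test does not cover smaller changes. Alternatives were other scalings, pseudocount 0.1, no filter, sample weights, blocks, single regions, edgeR and DESeq2 1.42.0 on fragments, summed near copies, other numbers of flanking genes and each sample left out.

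The members and the gene lists were chosen with earlier results of these data known. Named were the members, flanking genes called for the line (up to 12), called genes of each list (up to 4), Aldh1a2, Aldh1a3 and the 3 genes most like each member. Midbrain dopamine neuron, microglia, astrocyte, blood and striatal marker lists were also examined, and of all 8 marker lists 2 cerebellar markers in St, both higher in StHi, were the only genes called for the line. Of the 26628 symbols, 24554 were placed on the RefSeq annotation of GRCm38.p6, 2530 of them by an older symbol. All 5 segment genes matched promoter sequences. Transcript lengths and coding sequences came from GENCODE M21.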

Additional observations from a re-analysis of the deposited data

Results flagged for a closer look

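Within groups of 4, a sample was singled out where its gap to the nearest other exceeded the critical share of the group range, which chance does in about 1 of 20 groups; 49 groups were examined, and groups at the floor of 3 fragments were not, a choice made after the values were seen. E030003E18Rik had 66.7 normalized counts in StCo replicate 0, against 39.3 to 42.0 in the others. Aldh3a1 had 25.4 in CeHi replicate 3, against 14.8 to 15.7, and 41.0 in StCo replicate 2, against 65.3 to 66.7.

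Line differences that differed between the regions (interaction, limma) were examined in 17 named genes and called in 3, all outside the segment, against 0.532% of all genes tested. Most of the 17 were named because they were called for the line in 1 region, which favors such a call. They were -0.38 ± 0.08 on the log2 scale for 1110059E24Rik (adjusted P-value = 0.036), -3.07 ± 0.55 for Aldh3a1 (a gene that passed the filter only through StCo, given without a P-value) and -0.46 ± 0.10 for Anxa7 (0.044). The calls of 1110059E24Rik and of Anxa7 were each lost in 15 of 24 alternatives (adjusted P-value up to 0.15 and 0.14). The call of Aldh3a1 was lost in 2 of 21 (replicate block within line, and without StHi replicate 1) and kept in 19. Without StCo replicate 0, 1 or 3 Aldh3a1 was under the filter and had no value.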

How the results depend on the processing

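Across alternatives the 4 segment genes tested for the region stayed called, as 80.2% of all genes were in the main fit. The interaction was called for 0 of 5 segment genes, against 0.532% of all genes in the main fit. The line was called for 3 to 4 segment genes in Ce and 2 to 4 in St, counts that follow from the choice of the genes. No called single-gene value of 1363 reversed; 1294 stayed on the same side of the threshold, 60 lost a call and 9 gained one. Zfand5 lost its Ce call with Ce fitted alone and without CeCo replicate 1 or 3 or CeHi replicate 0, 1 or 2. Aldh1a7 lost its St call with pseudocount 0.1, with the replicate block and without StCo replicate 0, 2 or 3 or any StHi replicate. E030003E18Rik lost its St call with St fitted alone, and Anxa1 gained one in St with sample weights and without CeCo replicate 2. Among other genes, Fam111a lost its Ce call with sample weights, with Ce alone and without CeCo replicate 0, 1 or 2, CeHi replicate 1, 2 or 3 or StCo replicate 1 (adjusted P-value up to 0.11), Psat1 with Ce alone (0.063), and Anubl1 without CeCo replicate 1 or 3 or CeHi replicate 0 (up to 0.061). Aldh1a3 gained a St call with sample weights and without StHi replicate 1 (down to 0.028). The cause was not tested.

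Flanking genes called in Ce came to 4.65% with no filter, where 877 of all 21831 genes were called. By DESeq2 they came to 14.6%, where 1390 of all 15212 were called. With 10 genes on each side they came to 4.76% and with 40 to 12.3%, against 5.94% of all genes. With a sample left out they came to 4.88% to 12.2%, the highest without CeCo replicate 3, where 644 of all 15197 were called. In St they came to 4.88% with sample weights (740 of all 15213 genes) and 2.44% with St alone (295 of all 15213). With 40 genes they came to 7.41%, against 2.66% of all genes. With a sample left out they came to 0% to 2.44%, the highest without StCo replicate 2 (468 of all 15185) or 3 (366 of all 15188). List genes called in Ce, 4 in all, were 8 with sample weights, where 1085 of all 15213 genes were called. They were 7 by edgeR (952 of all 15212) and 10 by DESeq2 (1390 of all 15212). With a sample left out they were 3 to 8, the most without CeHi replicate 1 (789 of all 15192). List genes called in St, 2 in all, were 5 with weights (740 of all 15213 genes) and 7 by DESeq2 (711 of all 15212). With a sample left out they were 1 to 3, the fewest without StCo replicate 0 (378 of all 15192) or 1 (269 of all 15184).

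The correlation of deviations between regions, for samples with the same number, was 0.171 to 0.278 in Co and -0.075 to 0.051 in Hi. Between Co and Hi samples of 1 region with the same number, which are different mice, it was -0.221 to 0.196. These ranges overlap, so whether the numbers pair samples of 1 mouse cannot be told from these values. With the replicate block, flanking genes called in St were 2.44% and list genes 4, where 374 of all 15213 genes were called. The block within line was run for the interaction and region only, since the line difference lies between its blocks. Aldh3a1 had no value without StCo replicate 0, 1 or 3, being under the filter. Aldh1a7 in Ce rests on 4 to 21 fragments per sample, which limits its precision.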
